A study of Ovis aries with 12 samples.

Results

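Chromatin-modifying enzymes were read in longissimus dorsi, the long muscle of the back and loin, of 12 lambs. Genes were taken by symbol: every gene of the array whose name begins with HDAC, SIRT, KDM, KMT, SMYD, SETD, EZH, SMARC, PRMT or DNMT, or with KAT and a digit. These names covered 92 probe sets of 24016 on the array, and 56 genes of the 9155 genes that a probe set with 1 symbol named. Each gene was represented by its brightest probe set. Of the 56 genes, 47 were bright enough to test.

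Callipyge lambs carry the genotype +/CLPG and normal lambs the wild-type genotype. The callipyge allele lies in an imprinted gene cluster, and carriers develop enlarged loin and hindquarter muscles after birth. The 6 callipyge and 6 normal lambs were aged 10, 20 or 30 days, with 2 separate lambs in each of 6 groups, so that each age was read in different animals. All lambs nursed their dams until shortly before euthanasia. RNA from whole muscle was hybridised to Affymetrix arrays with bovine probes, so sheep transcripts were read by cattle sequences. The question put by the design was which transcripts differ while the muscle begins to enlarge.

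DNA in the nucleus is wrapped around histones, and enzymes that add or remove small chemical groups on histone tails change how readily a gene is read. KAT enzymes add acetyl groups, while HDAC and SIRT enzymes remove them, the sirtuins at the cost of NAD. EZH, KMT, SETD and SMYD enzymes methylate lysines and KDM enzymes remove the methyl groups. PRMT enzymes methylate arginines, DNMT enzymes methylate DNA itself, and SMARC proteins slide or evict histones with the energy of ATP. In muscle, the deacetylases of class IIa hold back MEF2, SWI/SNF remodellers open muscle genes for MYOD, and EZH proteins keep genes silent through histone H3 lysine 27 methylation. Not every gene with these names works on chromatin: SIRT3 and SIRT5 are mitochondrial, HDAC6 and SIRT2 act mainly in the cytoplasm, and SETD3 methylates actin.

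No member passed the test for genotype, and 2 members, EZH1 and SMYD2, were higher at 30 than at 10 days. Values are log2 of the scaled intensity plus 16, and a difference of 1 on this scale is a doubling of that sum. For dim genes it is more than a doubling of the intensity itself. The test was limma with Benjamini-Hochberg adjustment over all 12008 probe sets tested, with calls at 0.05. With genotype averaged over the ages, 0 of 47 members passed, beside 106 of all probe sets, or 0.883%. Of those 106, 68 were higher in callipyge lambs, against 17 of 100 called on unscaled arrays, where the median of all probe sets was -0.19. At an unadjusted p of 0.05, 9 members passed, which is 19.1% of them, beside 11.8% of all probe sets. An ordinary least-squares fit also called 0 members. The plot of every member in every lamb shows this spread.

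**Figure D1:**
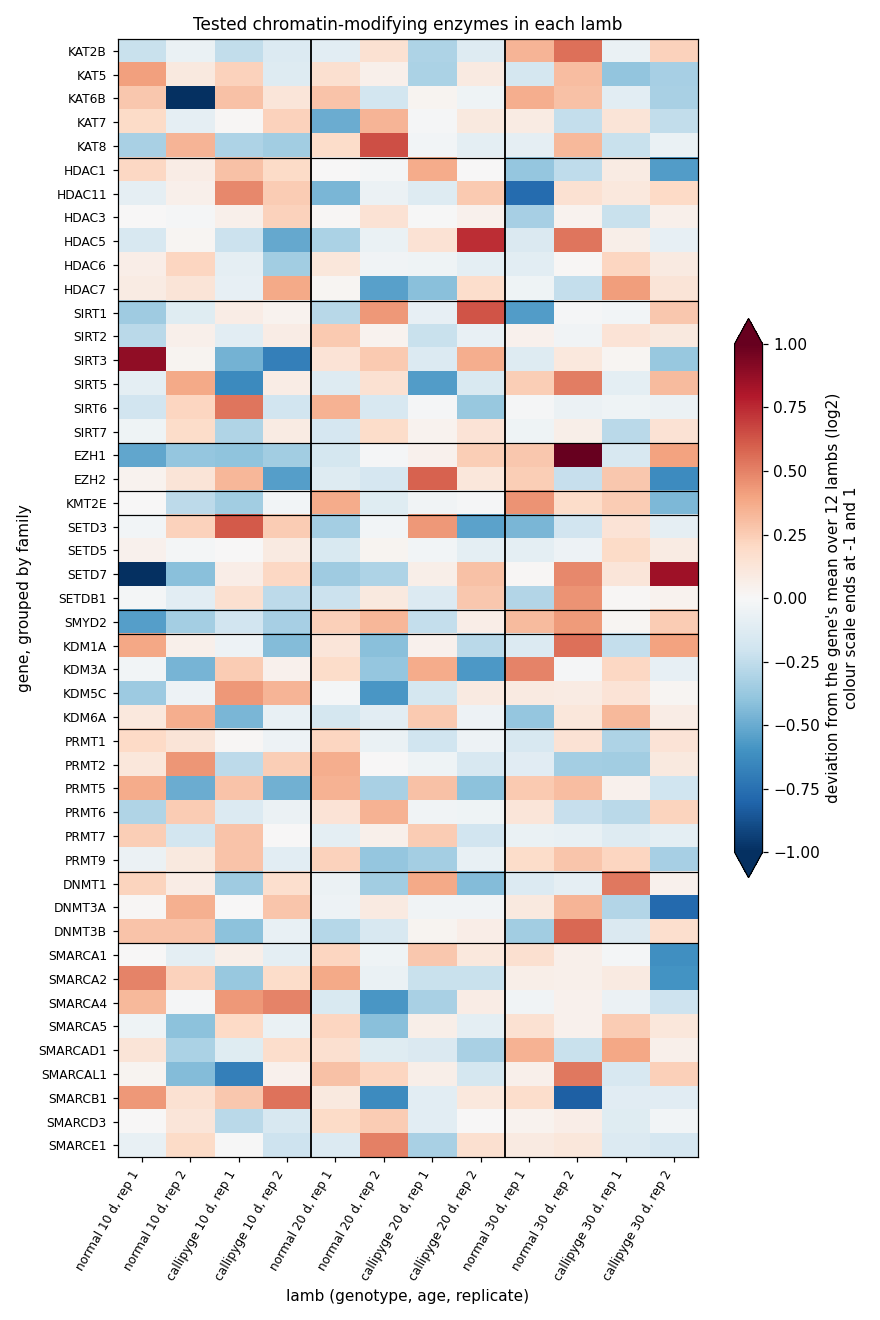
Heat map of the 47 tested genes (rows, grouped by family) in the 12 lambs (columns, by age, genotype and replicate); colour is the deviation from the gene's own mean in log2 units. No family forms a block of 1 colour by genotype, and the rows of EZH1 and SMYD2 run from blue at 10 days to red at 30 days in most lambs.

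The 95% intervals, which are not adjusted for many tests, give the precision of these 12 arrays on the log2 scale. For the genotype difference averaged over ages they reached between 0.18 and 0.43 to either side, with a median of 0.32. At a single age they were wider. For 47 of 47 members the interval lay within 2-fold either way, beside 97.9% of all probe sets. For 38 members it lay within 1.5-fold either way, which is 80.9% beside 77.4% of all probe sets. The spread between lambs of a group was larger than the genotype difference in 35 members, and its median SD was 0.28, beside 0.24 over all probe sets. Across members the genotype difference had a median of -0.05, and 21 lay above 0 and 26 below; over all probe sets the median was -0.01.

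SETD7, a lysine methyltransferase that marks histone H3 at lysine 4 and also methylates other proteins, had the smallest p of the members. In normal lambs it measured 8.50 and 9.09 at 10 days, 9.15 and 9.20 at 20 days, and 9.52 and 9.99 at 30 days. In callipyge lambs it measured 9.58 and 9.72, then 9.56 and 9.80, then 9.63 and 10.36 at the same ages. Callipyge lambs were thus above both normal lambs of their age in 5 of 6 cases, and within an age the genotypes overlapped only at 30 days. Such counts, here and below, were not taken over all probe sets. A count of 4 of 6 was also met at small differences, above for EZH2 (0.04) and below for HDAC6 (-0.09). The difference was 0.53 ± 0.15 (SE), a 1.44-fold higher level, with an interval from 0.21 to 0.85. Its adjusted p was 0.147 in limma and its exact permutation p was 0.0185 (two-sided, unadjusted, over all relabelings of genotype within age, smallest possible 0.00926). Without the first normal 10-day lamb the difference was 0.41 and the adjusted p 0.306. The difference between genotypes was 0.85 at 10 days (adjusted p 0.330) and 0.50 at 20 days (adjusted p 0.843).

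SMARCD3, the BAF60c subunit through which SWI/SNF remodellers reach muscle and heart genes, was the only member whose genotypes did not overlap. Callipyge lambs measured 9.81 and 9.92 at 10 days, 9.97 and 10.08 at 20 days, and 9.96 and 10.05 at 30 days. Normal lambs measured 10.08 and 10.20, then 10.27 and 10.34, then 10.11 and 10.14. All 6 callipyge lambs lay below all 6 normal lambs, although the lowest normal and the highest callipyge lamb were only 0.0035 apart. Such separation was met in 1 of 47 members, beside 1.03% of all probe sets. The difference was small, -0.23 ± 0.08 (SE), or 1.17-fold lower, and the SD between lambs of a group was 0.065. Its exact permutation p of 0.00926 was the smallest the design allows, and its adjusted p in limma was 0.297.

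**Figure D2:**
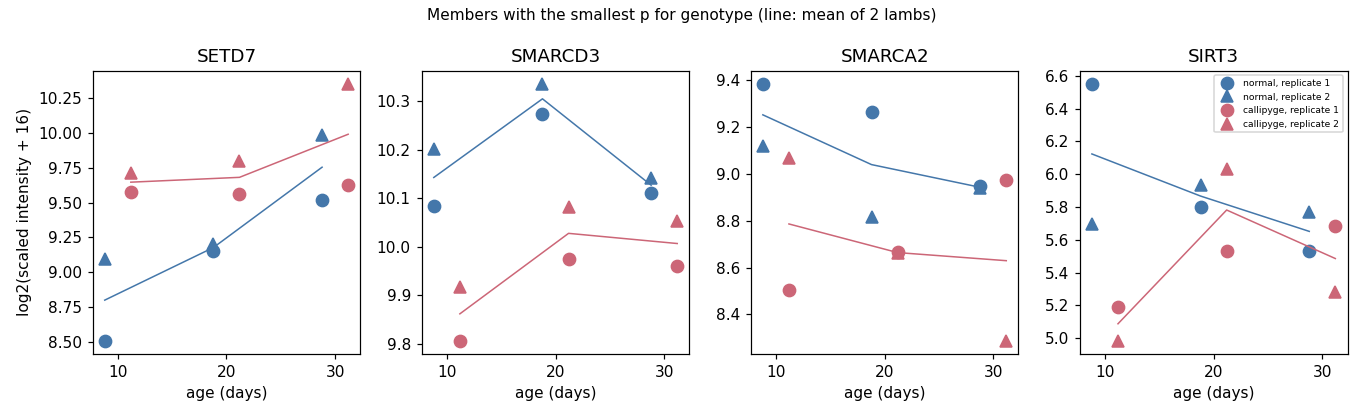
Log2 scaled intensity plus 16 of SETD7, SMARCD3, SMARCA2 and SIRT3 (vertical axes, each with its own range) against age in days for the 6 normal (blue) and 6 callipyge (red) lambs, with circles and triangles for replicates 1 and 2, set slightly apart sideways, and a line through the mean of each pair. SETD7 is higher in callipyge lambs with overlap at 30 days, and SMARCD3 is lower in all 6 callipyge lambs.

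SMARCA2 and SMARCA4 are the alternative ATPase motors of SWI/SNF. SMARCA2 was measured at 8.51, 9.07, 8.67, 8.66, 8.97 and 8.29 in the callipyge lambs, in order of age, and at 9.38, 9.12, 9.26, 8.82, 8.95 and 8.94 in the normal lambs. In 5 of 6 cases the callipyge lamb had less than both age-matched normal lambs, the exception being 1 lamb at 30 days. The SMARCA2 difference was -0.38 ± 0.15 (SE; adjusted p 0.314 in limma). That of SMARCA4 was 0.14 (adjusted p 0.741), and the gap between both ATPases was not tested. SMARCB1, a core subunit, differed by 0.19 between genotypes (adjusted p 0.742), and SMARCE1, which contacts DNA, by -0.23 (adjusted p 0.566). The ISWI motors SMARCA1 and SMARCA5 differed by -0.10 and 0.15, and SMARCAD1 and the annealing helicase SMARCAL1 by 0.01 and -0.22, each with an adjusted p of at least 0.652.

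Of the 5 acetyltransferases tested, 4 were lower in callipyge lambs on average and the family median was -0.22. KAT8, which acetylates histone H4 at lysine 16, measured 7.16 to 7.48 in callipyge lambs with a median between 7.28 and 7.41, and 7.18 to 8.15 in normal lambs with a median between 7.69 and 7.84. The ranges of KAT8 overlapped, and 4 of 6 callipyge lambs had less than both age-matched normal lambs. Its difference was -0.36 ± 0.14 (SE; adjusted p 0.343 in limma; exact permutation p 0.0463). KAT2B, a partner of MYOD in muscle, differed by -0.22 ± 0.10 (adjusted p 0.429), and KAT5, the catalytic subunit of the NuA4 complex, by -0.29 (adjusted p 0.437). The other tested probe sets of KAT2B gave -0.15 and 0.01. KAT6B and KAT7 differed by -0.01 and 0.07.

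Of the 6 histone deacetylases tested, 5 were higher in callipyge lambs on average, with a family median of 0.09. HDAC11, the class IV enzyme, measured 7.08 and 6.85 at 10 days, 6.47 and 6.86 at 20 days, and 6.70 and 6.79 at 30 days in callipyge lambs. In normal lambs it measured 6.50 and 6.65, then 6.14 and 6.54, then 5.82 and 6.75. The genotypes of HDAC11 were apart at 10 days and overlapped later, with 4 of 6 callipyge lambs above both normal lambs of their age. The difference was 0.39 ± 0.16 (SE; adjusted p 0.354 in limma; exact permutation p 0.0463). The class IIa enzymes HDAC5 and HDAC7 differed by 0.04 and 0.20, the class I enzymes HDAC1 and HDAC3 by 0.13 and 0.05, and the tubulin deacetylase HDAC6 by -0.09. None of these 5 had an adjusted p under 0.675. With arrays left unscaled, the HDAC median was -0.11 and 2 of 6 lay above 0, while the KAT median was -0.44, against a median of -0.19 over all probe sets.

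Sirtuins differed among themselves. SIRT3, the main deacetylase of mitochondria, measured 5.19 and 4.98 in callipyge and 6.55 and 5.69 in normal lambs at 10 days. At 20 days it measured 5.53 and 6.03 against 5.80 and 5.93, and at 30 days 5.69 and 5.28 against 5.53 and 5.77. The genotypes of SIRT3 were apart at 10 days and overlapped at 20 and 30 days. Its difference averaged over ages was -0.43 ± 0.17 (SE; adjusted p 0.342 in limma; exact permutation p 0.0741), and that at 10 days was -1.03 (adjusted p 0.279). SIRT5, which removes succinyl and malonyl groups in mitochondria, differed by -0.35 ± 0.16 (adjusted p 0.414). SIRT1, the nuclear enzyme that acts on PGC-1alpha, differed by 0.30 (adjusted p 0.529). SIRT2, SIRT6 and SIRT7 lay between -0.06 and -0.03, so that 5 of 6 sirtuins were below 0 with a median of -0.05.

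All 4 SETD genes lay above 0 for genotype, with a median of 0.18; unscaled, 2 of 4 did and the median was -0.01. After SETD7 the next was SETD3, the actin histidine methyltransferase, at 0.27 (adjusted p 0.552), then SETD5 at 0.08 and the H3 lysine 9 methyltransferase SETDB1 at 0.03. The Polycomb methyltransferases EZH1 and EZH2 differed by -0.07 and 0.04. KMT2E, a member of the trithorax group, differed by -0.21 (adjusted p 0.662), and SMYD2, which methylates p53 and HSP90 as well as histones, by -0.14 (adjusted p 0.663). Among demethylases, KDM5C, which removes methyl groups from H3 lysine 4, differed by 0.28 ± 0.13 (SE; adjusted p 0.412), with 4 of 6 callipyge lambs above both normal lambs of their age. The difference of KDM5C did not hold for its probe sets alike: the other tested ones gave -0.01 and 0.26. KDM1A, KDM3A and KDM6A lay between -0.18 and 0.07.

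The arginine methyltransferases lay close together, with 5 of 6 below 0 and a median of -0.13. PRMT1, which makes most of the asymmetric dimethylarginine of a cell, differed by -0.15 ± 0.11 (SE; adjusted p 0.663 in limma), and PRMT2, PRMT5, PRMT6 and PRMT9 lay between -0.16 and -0.11. PRMT7 was the exception at 0.04. Among DNA methyltransferases, DNMT3A, which sets new methylation, measured 8.30 to 8.61 in callipyge lambs at 10 and 20 days and 8.04 and 7.56 at 30 days. In normal lambs DNMT3A stayed between 8.29 and 8.69 at every age. Only the callipyge lambs of 30 days lay below all others, and the difference at that age was -0.76 (adjusted p 0.401). Averaged over ages DNMT3A differed by -0.29 ± 0.12 (SE; adjusted p 0.383; exact permutation p 0.102), and its other tested probe set gave -0.27. DNMT1, which copies methylation at replication, and DNMT3B differed by 0.11 and -0.12.

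**Figure D3:**
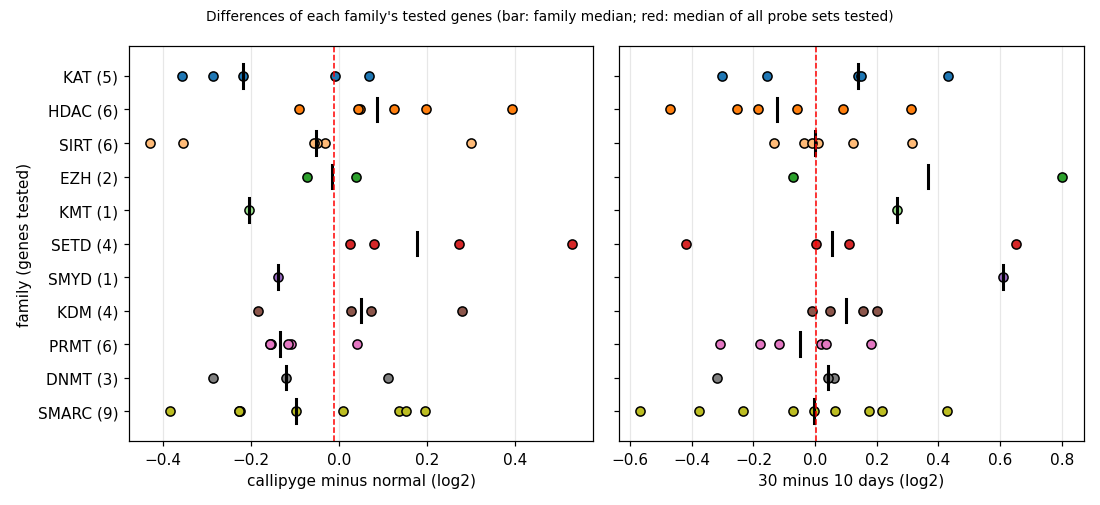
Log2 differences of the 47 tested genes by family (rows, with the number of genes tested), for callipyge minus normal (left) and 30 minus 10 days (right); points are genes, black bars family medians and the red dashed line the median of all probe sets tested. The 4 SETD genes lie right of 0 and 4 of 5 KAT genes left of 0 for genotype, and EZH1, SETD7 and SMYD2 lie farthest right for age.

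Family medians are descriptions with no test, since a family holds between 1 and 9 tested genes. Leaving out each lamb in turn, the genotype median ran from -0.27 to -0.17 for KAT, from 0.05 to 0.15 for HDAC, from 0.10 to 0.26 for SETD and from -0.21 to -0.07 for PRMT. Those of DNMT (-0.27 to 0.03), EZH (-0.09 to 0.05), KDM (-0.06 to 0.16) and SMARC (-0.16 to 0.00) came to both sides of 0. With no filter on dim probe sets the medians were -0.11 for KAT, 0.13 for HDAC, 0.18 for SETD and -0.12 for PRMT. With the next brightest tested probe sets they were -0.15, 0.09, 0.08 and -0.13. Unscaled, the PRMT median was -0.30, against -0.19 over all probe sets. Of all members, 23 had 1 sign of the genotype difference at all 3 ages, which is 48.9%, beside 33.5% of all probe sets.

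At single ages, 0 of 47 members passed the genotype test at 10 days (0.0666% of all probe sets did), 0 at 20 days (0.0333%) and 0 at 30 days (0.05%). The members with the smallest p were SIRT3, SETD7 and KDM5C (0.59, adjusted p 0.448) at 10 days. At 20 days they were HDAC5 (0.63, adjusted p 0.765), SMYD2 (-0.37, adjusted p 0.827) and SETD7, and at 30 days DNMT3A, KAT2B (-0.36, adjusted p 0.674) and EZH1 (-0.53, adjusted p 0.675). Other tested probe sets of KDM5C gave 0.05 and 0.12 at 10 days. At 30 days those of KAT2B gave -0.06 and 0.19, and that of DNMT3A gave -0.74. With 2 lambs a group, 1 lamb could move these values: with each lamb left out in turn, SIRT3 at 10 days ran from -1.46 to -0.61 and HDAC5 at 20 days from 0.34 to 0.93. DNMT3A at 30 days ran from -0.997 to -0.51 and EZH1 from -0.92 to -0.15. The interaction of genotype and age called 0 members and 0 of all probe sets (0%). Its smallest unadjusted p values among members were 0.0470 for the H3 lysine 27 demethylase KDM6A, 0.0546 for HDAC5 and 0.0563 for DNMT3A, each with an adjusted p of 0.992. Thus no member was shown to differ between genotypes more at 1 age than at another.

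With age, 2 of 47 members (4.26%) were higher at 30 than at 10 days, beside 0.575% of all probe sets, and 0 were lower, beside 1.26%. Both belong to the EZH, KMT, SETD and SMYD families, grouped here by name as lysine methyltransferases. Of these families 8 genes were tested, among them the actin histidine methyltransferase SETD3. In all, 8 of 47 members reached an unadjusted p of 0.05, and 1965 of 12008 probe sets did, which is a similar share. An ordinary least-squares fit called 0 members. Across members the difference had a median of 0.02, with 26 above and 21 below 0; over all probe sets the median was 0.00. The split of all calls moved with the scaling of the arrays: 69 probe sets were called higher and 151 lower, against 223 higher and 5 lower on unscaled arrays, where the median of all probe sets was 0.24. The counts over all probe sets rest on few lambs: with 1 lamb left out, between 18 (without the first normal lamb of 10 days) and 279 were called for age and between 41 (without the second normal lamb of 20 days) and 116 for genotype. Without the second 30-day lamb of both genotypes, 1 was called for age and 32 for genotype.

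EZH1, the Polycomb methyltransferase that takes the place of EZH2 in cells that no longer divide, was higher at 30 than at 10 days. At 10 days it measured 7.00 and 7.05 in callipyge and 6.88 and 7.01 in normal lambs. At 20 days it measured 7.44 and 7.64 in callipyge and 7.22 and 7.39 in normal lambs, and at 30 days 7.24 and 7.80 against 7.67 and 8.44. All 4 lambs of 30 days lay above all 4 of 10 days, and the highest value was that of 1 normal lamb. The age means were 6.98 ± 0.07, 7.42 ± 0.17 and 7.79 ± 0.50 (SD, n = 4 each). The difference was 0.80 ± 0.18 (SE), or 1.74-fold, with an adjusted p of 0.0467 in limma. It was 0.50 in callipyge and 1.11 in normal lambs, and the interaction was not called (adjusted p 0.992). EZH2, the enzyme of dividing cells, differed by -0.07 between 30 and 10 days (interval -0.60 to 0.45), and the gap between EZH1 and EZH2 was not tested.

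SMYD2, a SET and MYND domain methyltransferase present in heart and skeletal muscle, was also higher at 30 days. At 10 days it measured 9.07 and 8.94 in callipyge and 8.72 and 8.93 in normal lambs. At 20 days it measured 9.03 and 9.33 against 9.50 and 9.60, and at 30 days 9.29 and 9.52 against 9.58 and 9.70. All 4 lambs of 30 days again lay above all 4 of 10 days; at 20 days the normal lambs had reached the range of 30 days and the callipyge lambs overlapped both ages. The age means were 8.91 ± 0.15, 9.37 ± 0.25 and 9.52 ± 0.17 (SD, n = 4 each). The difference was 0.61 ± 0.13 (SE), or 1.52-fold, with an adjusted p of 0.0321 in limma, and it was 0.40 in callipyge and 0.82 in normal lambs. All lambs of 30 days lay above all of 10 days in 2 members, 4.26%, beside 3.53% of all probe sets, and all below in 0, beside 4.31%.

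Both calls lie near the threshold. The first principal component ordered the arrays by age, from -22.0 to -12.4 at 10 days and from -1.33 to 4.81 at 20 days. The second lamb of 30 days in each genotype lay farthest toward its 30-day end (15.9 and 27.5, against 6.43 and 8.77 for the first lambs). Leaving both out thus removes the arrays most extreme in the direction of the age difference. Without both of these arrays EZH1 differed by 0.47 (adjusted p 0.240) and SMYD2 by 0.52 (adjusted p 0.162). Leaving out 1 lamb at a time, the call of EZH1 was kept in 2 of 12 cases, those without the first 30-day lamb of either genotype. That of SMYD2 was kept in 6 of 12 and lost without any 10-day lamb or the second 30-day lamb of either genotype. The largest adjusted p, 0.148 for EZH1 and 0.123 for SMYD2, came in both genes without the first normal lamb of 10 days. The F test of any change over the 3 ages called 0 members, beside 0.849% of all probe sets, with SMYD2 (adjusted p 0.0700), EZH1 (0.117) and KAT2B (0.194) smallest.

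**Figure D4:**
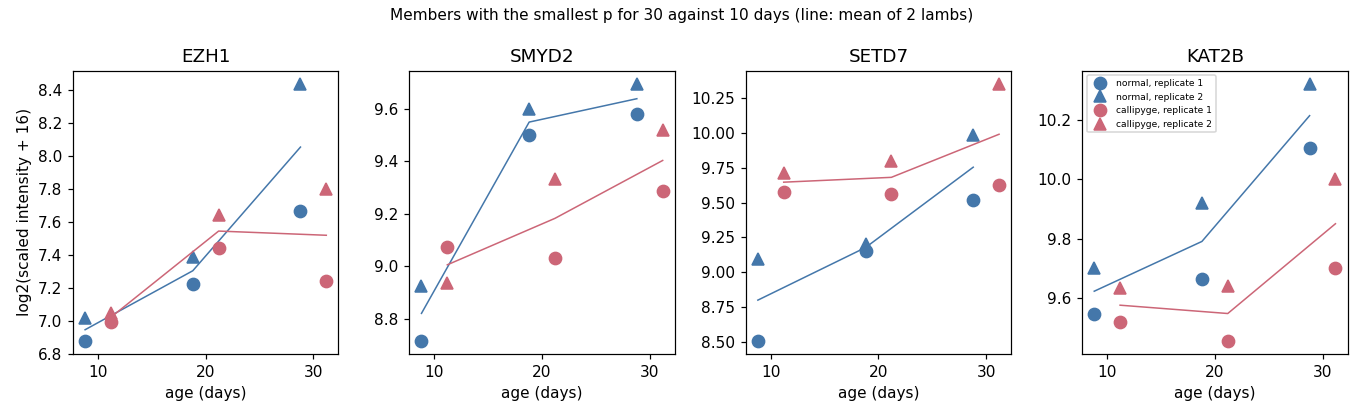
Log2 scaled intensity plus 16 of EZH1, SMYD2, SETD7 and KAT2B (vertical axes, each with its own range) against age in days for normal (blue) and callipyge (red) lambs, drawn as circles and triangles for replicates 1 and 2, set slightly apart sideways, with a line through the mean of each pair. All lambs of 30 days lie above all lambs of 10 days for EZH1 and SMYD2, while the ages overlap for SETD7 and KAT2B.

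Other members did not pass the age test. SETD7 differed by 0.65 ± 0.18 (SE; adjusted p 0.0967 in limma), by 0.34 in callipyge and 0.96 in normal lambs, and its ages overlapped because callipyge lambs of 10 days were already at 9.58 and 9.72. SETD7 passed on unscaled arrays (adjusted p 0.0346) and without the first callipyge lamb of 30 days (0.0377). KAT2B measured 9.52, 9.63, 9.55 and 9.70 at 10 days and 9.70, 10.00, 10.11 and 10.32 at 30 days, callipyge lambs first. The ages of KAT2B just touched, and the difference was 0.43 ± 0.12 (SE; adjusted p 0.104); its other tested probe sets gave 0.16 and -0.14.

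Members with lower values at 30 days also failed the test. HDAC1, the class I deacetylase of the NuRD, Sin3 and CoREST complexes, measured 8.57, 8.46, 8.49 and 8.35 at 10 days and 8.36, 7.72, 7.89 and 8.02 at 30 days, callipyge lambs first. Its ages overlapped through 1 callipyge lamb, and the difference was -0.47 ± 0.16 (SE; adjusted p 0.156 in limma). SMARCB1 measured 7.03, 7.30, 7.20 and 6.91 at 10 days and 6.64, 6.65, 6.94 and 5.94 at 30 days. The ages of SMARCB1 overlapped through 1 normal lamb of 30 days, and the difference was -0.57 ± 0.22 (adjusted p 0.221). SETD3 (-0.42, adjusted p 0.324), SMARCA4 (-0.38, adjusted p 0.248), DNMT3A (-0.32, adjusted p 0.318) and PRMT2 (-0.31, adjusted p 0.443) were also below 0.

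By family, the 30-day minus 10-day median was -0.12 for HDAC, with 4 of 6 below 0, and 0.14 for KAT, with 3 of 5 above 0. These families thus lay on the opposite sides of 0 from their genotype medians; unscaled, the HDAC median was 0.15 and the KAT median 0.38. The SIRT and SMARC medians were 0.00, the PRMT median -0.05, and those of DNMT, SETD and KDM between 0.04 and 0.10. The highest members of SIRT, KMT and KDM were SIRT5 (0.31, adjusted p 0.470), KMT2E (0.27, adjusted p 0.528) and KDM3A, a H3 lysine 9 demethylase (0.20, adjusted p 0.720). In SMARC the highest was SMARCAL1 at 0.43, which was not called. Without each lamb in turn the KAT median ran from -0.18 to 0.16, and the HDAC median from -0.19 to -0.06.

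**Figure D5:**
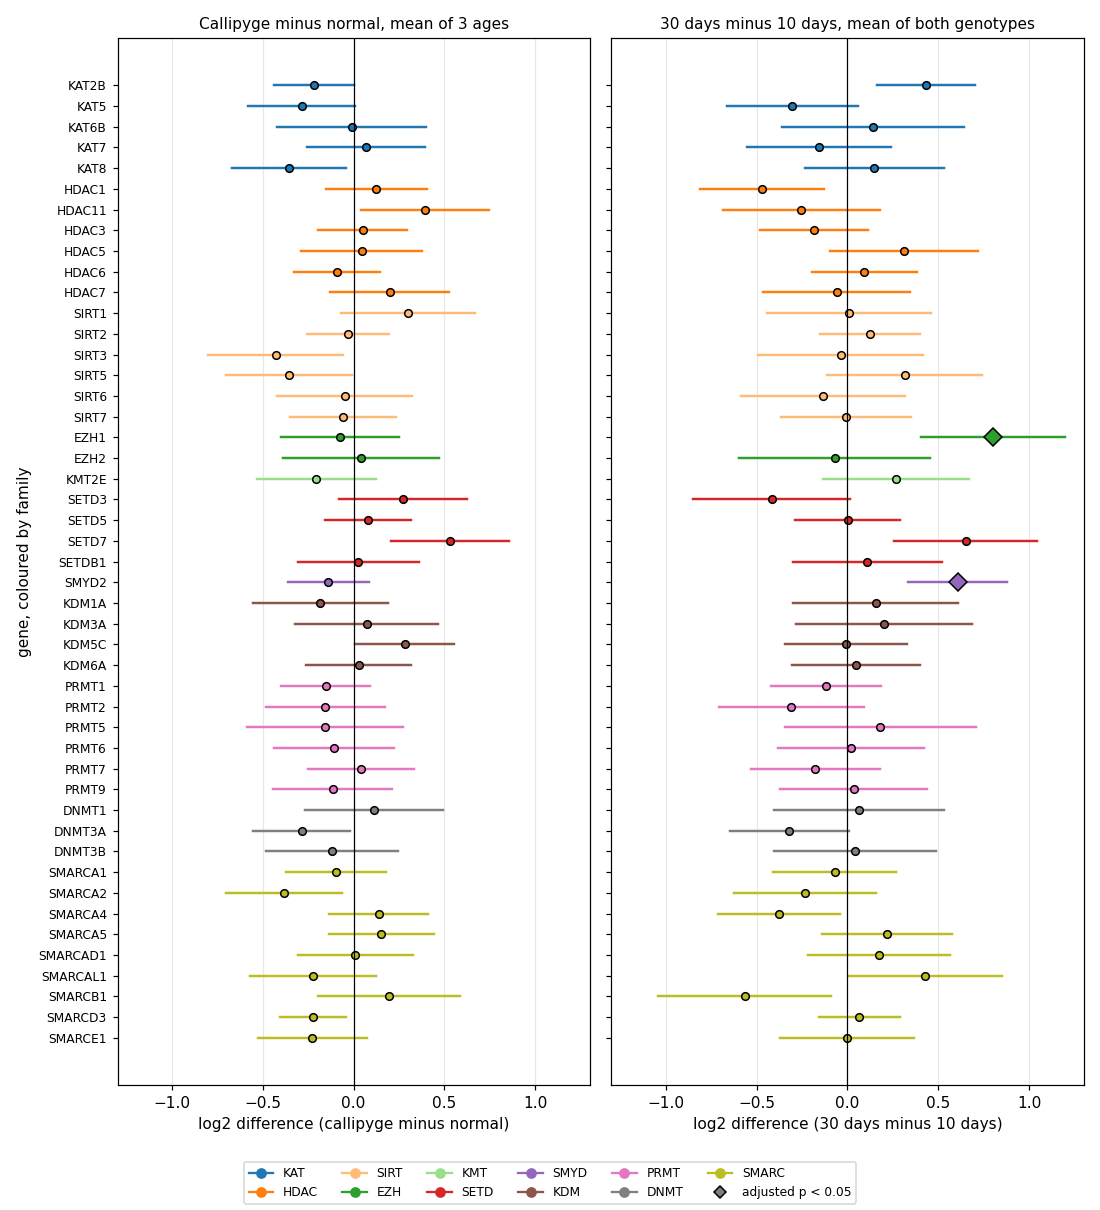
Log2 difference (horizontal axes) with its 95% interval for each of the 47 tested genes (rows, coloured by family), for callipyge minus normal averaged over 3 ages (left) and 30 minus 10 days averaged over genotypes (right); diamonds mark an adjusted p under 0.05. No diamond stands on the left, and EZH1 (0.80) and SMYD2 (0.61) carry the only diamonds on the right.

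Markers of cell types were set beside the age difference; in RNA from whole muscle, fewer cells of a type and less RNA per cell cannot be told apart. Of the cycling-cell markers, 5 of 14 listed were tested, 4 lay below 0 for 30 minus 10 days (median -0.36) and 0 were called. Sums in this paragraph take every listed marker with a probe set, also those too dim to test. The summed scaled intensity of 11 cycling-cell markers ran from 539 to 771 at 10 days and from 401 to 571 at 30 days. All 4 tested immune markers of 12 listed lay above 0 (median 0.33, 0 called), while PTPRC, CD4, CD8A, CD79A, MS4A1 and ITGAM were too dim to test. Summed over the 10 immune markers with a probe set, the intensity was 154 to 191 at 10 days and 214 to 254 at 30 days. All 10 tested endothelial and smooth-muscle markers lay above 0 (median 0.14, 0 called) and all 9 tested fibre markers below 0 (median -0.17, 0 called), and the sums of both overlapped between ages. Of 10 fibroblast and matrix markers, 8 lay below 0 (median -0.14, 0 called), again with overlapping sums. No listed marker with a probe set was at 0 on all arrays. For genotype, both tested erythroid markers (median -0.57) and all 3 tested adipocyte markers (median -0.25) lay below 0, 0 markers of any list were called, and the sums overlapped between genotypes in every list. The part of these markers in the rise of EZH1 and SMYD2 was not tested.

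In lists of partners of these enzymes and of further related enzymes, each gene represented by its brightest probe set, 4 genes passed the test for genotype. Over all probe sets 0.883% passed, and these lists were chosen with earlier results of these data known. Of 26 tested partners of histone deacetylase complexes, 1 was higher in callipyge lambs and 0 lower: DNTTIP1, a scaffold of the MiDAC complex with HDAC1 and HDAC2, by 1.73 ± 0.15 (SE; adjusted p 0.000119 in limma). DNTTIP1 was also the 1 gene of this list called for age, at 0.83 (adjusted p 0.0390). Of 7 other lysine methyltransferases tested, 1 was higher, METTL21E, a methyltransferase of muscle that acts outside chromatin, by 1.81 ± 0.19 (adjusted p 0.000686). Of 16 genes of the class IIa deacetylase and MEF2 axis, 1 was higher, the calcium-dependent kinase CAMK2D, by 0.69 ± 0.12 (adjusted p 0.0192), and the median was 0.27. Of 20 genes of sirtuin substrates and cofactor supply, 1 was lower, IDH2, a mitochondrial dehydrogenase that SIRT3 deacetylates, by -0.93 ± 0.13 (adjusted p 0.00582).

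With age, 2 genes of the sirtuin list were lower at 30 days: NMRK2, a muscle kinase that makes NAD from nicotinamide riboside, by -1.41 ± 0.15 (SE; adjusted p 0.00381 in limma), and GLUD1, glutamate dehydrogenase, by -0.67 ± 0.15 (adjusted p 0.0445). Over all probe sets, 0.575% were called higher and 1.26% lower at 30 days. Genotype and age each called 0 genes in the other 5 lists: 19 genes of other acetyltransferase complexes, 17 of Polycomb and COMPASS, 9 demethylases, 20 other remodeller subunits and 10 genes of sarcomere chaperoning. The genotype medians of these 5 lists lay between -0.07 and 0.15. Both calls near the threshold moved when 1 lamb was left out: CAMK2D kept its call in 5 of 12 cases and GLUD1 in 1 of 12, and the age call of DNTTIP1 in 4 of 12. DNTTIP1, METTL21E and IDH2 kept the genotype call, and NMRK2 the age call, in 12 of 12. Ordinary least squares called none of these 6 genes: the adjusted p for genotype was 0.101 for DNTTIP1, 0.118 for METTL21E, 0.178 for CAMK2D and 0.147 for IDH2. For age it was 0.0527 for NMRK2, 0.141 for GLUD1 and 0.180 for DNTTIP1. On unscaled arrays CAMK2D differed by 0.47 (adjusted p 0.225 in limma) for genotype and GLUD1 by -0.38 (adjusted p 0.352) for age, and neither was called.

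Where a member had more than 1 tested probe set, these mostly leaned the same way. This held for the genotype sign in 7 of 10 such genes and for the age sign in 8 of 10, over 24 probe sets. DNMT3A, KMT2E, PRMT2, SETD3, SMARCA4 and SMARCA5 kept both signs in all of theirs. The probe sets of KAT2B split in both signs, those of KDM3A and KDM5C for genotype and those of SIRT2 for age. The 9 genes too dim to test were HDAC2, HDAC8, HDAC10, KAT14, KDM2B, PRMT3, SMYD3, SMYD4 and SMYD5, so 3 of 4 SMYD genes were not tested. HDAC4, HDAC9, SIRT4 and SMYD1, the muscle member of its family, were not analysed here.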

How the data were processed

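The authors deposited 1 linear intensity for each probe set, computed with MAS5 and GCOS per the submitters' processing notes; neither a version nor a scaling target is given in the sources used here. Trimmed means of the arrays (trimmed by 2% from either end) lay between 55.7 and 105.7, so each array was scaled to their mean, 79.2, and values were taken as log2 of scaled intensity plus 16. Of 24128 probe sets, 112 controls were removed, and those with a mean below the median of 5.25 were not tested, which left 12008. The array's annotation gave 1 symbol for 13292 probe sets, several for 86 and none for 10638. Precision is limited by the number of arrays, and replicates were separate lambs.

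limma 3.58.1 in R 4.3.3 was fitted with 6 group means and variances shared with a trend (6 residual and 6.93 prior degrees of freedom), and tested on simulated data. Contrasts were genotype averaged over ages and at each age, its interaction with age, 30 minus 10 days, and any change with age. Fold changes are on the log2 scale with 16 added, which understates changes of dim genes. Figures were drawn with matplotlib 3.10.9. The labels name no pairing, and the main fit did not pair lambs by replicate number. Of 15 correlations of same-numbered deviations (-0.06 to 0.11), 1 was over 0.1. These correlations run over all tested probe sets and do not test a replicate effect in single genes. In EZH1, SETD7 and KAT2B replicate 2 was above replicate 1 in all 6 groups, and in KDM3A it was below in all 6.

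Members and lists were chosen with earlier results of these data known. Named for genotype and for 30 minus 10 days were called members and, in each family, the tested member with the smallest p; for each other contrast, the 3 smallest. Further members are named to account for each family and were chosen after their values were seen. Alternatives covered pseudocount, filter, scaling, variance model, array weights, probe set, replicate block and omitted arrays.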

Additional observations from a re-analysis of the deposited data

How the results depend on the processing

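Of 1352 values of 56 single-gene results under 13 alternatives and with each of 12 arrays left out, 1270 kept direction and side of the threshold, 66 lost a call, 13 gained 1 and 3 reversed. No alternative called a member for genotype, at any age or over all ages, or for the interaction. The 2 members called for 30 minus 10 days became 0 with no filter on dim probe sets, 0 by ordinary least squares, 0 without both 30-day arrays numbered 2, 1 by quantile normalization, 1 by median centring and 3 with no scaling; leaving out each array gave 0 to 3. The members called for any change with age, 0 in the report, were 1 with the filter at the 75th percentile and 1 with no scaling, and 0 to 1 with an array left out. The members' median genotype difference was 0.00492 with no filter, -0.222 with no scaling and -0.0196 without both 30-day arrays, and ran from -0.0822 to -0.0242 with an array left out. Their median 30 minus 10 days was -0.00645 with no filter, 0.0467 with the 75th-percentile filter and 0.258 with no scaling, and ran from -0.0176 to 0.0469. KDM5C reversed for genotype with its next brightest probe set (-0.0137), and EZH1 ran from -0.201 to 0.0555 with an array left out, 0.0205 without the first callipyge lamb of 30 days. Over all probe sets, the 106 called for genotype became 47 with no filter and 3 by ordinary least squares. The replicate block added SETD7 to the age calls (adjusted p 0.0358 in limma), for 3 members, and changed no other call of a member. Of the genes in the lists of partners and related enzymes it added BAZ1B for age (adjusted p 0.0488 in limma). The cause of these changes was not tested beyond the fewer samples or added dim probe sets of each setting. For a typical member, genotype differences averaged over ages within about 0.3 on the log2 scale could not be resolved. This rests on 95% intervals that are not adjusted for many tests. Intervals at a single age, with 2 lambs a group, were wider, as were those for 30 minus 10 days. Even SETD7, with a genotype difference of 0.53, was not called.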
